A study of Macaca fascicularis with 11 samples.

Results

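TBXT, EOMES, MIXL1, MESP1, GSC and FOXH1 are transcription factors of the primitive streak, and their transcripts were followed in cultured cynomolgus macaque embryos. The genes were chosen by symbol, with earlier results of these data known, and no measured threshold was used. All 6 were found among the 19367 genes of the single-cell matrix, of which 1019 could be paired with a symbol. The matrix lists TBXT as ENSMFAG00000030026, EOMES as ENSMFAG00000002012, MIXL1 as ENSMFAG00000027604, MESP1 as ENSMFAG00000045799, GSC as ENSMFAG00000046203 and FOXH1 as ENSMFAG00000040568.

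The study asked whether ISL1, a LIM-homeodomain transcription factor of the amnion and later of the heart, is needed for early primate development. Embryos of Macaca fascicularis were grown in vitro to Day 10, 12 or 14 and profiled by droplet single-cell RNA sequencing, in which transcripts are counted by the random tag (UMI) that each received. Wild-type embryos gave 6 libraries, and ISL1 hypomorphic mutant embryos gave 5. Mutants had been injected at the one-cell stage with CRISPR/Cas9 and 2 guide RNAs against ISL1, and each embryo carried a mosaic of deletions, so the mutant group is not a single clean allele. For the wild type, 2 and 3 embryos were pooled at Day 10, 1 and 2 on Day 12, and 2 in each Day 14 library, 12 in all. For the mutant, 3 were pooled at Day 10, and 3 and 1 for both later days, 11 in all. Replicate libraries held different embryos, and the mutant at Day 10 had 1 library. The replicate number is the batch number in the library titles.

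The primitive streak is the site at which epiblast cells leave the epithelium and form mesoderm and definitive endoderm. Its formation depends on WNT, BMP and NODAL signals. FOXH1 is the DNA-binding partner through which SMAD proteins carry the NODAL signal to their targets. The T-box factors TBXT (Brachyury) and EOMES, the homeodomain factors MIXL1 and GSC (Goosecoid), and the basic helix-loop-helix factor MESP1 are switched on in the streak and in its derivatives. TBXT marks streak and nascent mesoderm, EOMES is needed for definitive endoderm and early mesoderm, and MESP1 marks early mesoderm including the forerunners of the heart. GSC is known from the organizer and from anterior endoderm.

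The 33330 cells carried 977069191 UMIs after the authors' correction for ambient RNA. Libraries held 325 to 9625 cells and 36654977 to 164808415 UMIs, and the median cell of a library held between 10916 UMIs (mutant Day 14, replicate 1) and 142180 UMIs (wild-type Day 12, replicate 1). Cells were clustered without the 6 genes, ISL1 or the other gastrulation genes, and clusters were named from marker genes: trophoblast-like, endoderm-like, extraembryonic mesenchyme-like and Epi-derived-like, the last being epiblast and its derivatives, which were subdivided into epiblast-like, mesoderm-like and amnion-like cells. The markers used did not separate embryonic from extraembryonic mesoderm, and mesoderm-like cells were found from Day 10. The endoderm-like markers, with APOA1, TTR and VTN among them, did not separate definitive from extraembryonic endoderm. Endoderm-like cells were also found from Day 10. The endoderm-like class carried all 7 of its markers in every library, with a summed level of 49117 to 86394 CPM (UMIs of a gene scaled to a common total per library and class). The mesoderm-like class carried 5 to 7 of its 7 markers, at a summed 193 to 827 CPM, and the amnion-like class carried 7 of 7, at 323 to 1125 CPM. A Day 12 subcluster of 226 epiblast-like cells was led by the trophoblast hormone gene CGA, so epiblast-like cells were not compared between genotypes at Day 12. Its cells (24 in wild-type replicate 2, and 142 and 60 in the mutants) stayed in the Epi-derived-like values of that day, which are also given without them, and in the epiblast-like ranges. Between 0 and 16 cell barcodes were shared by a pair of libraries, with a median of 1 over 55 pairs. ISL1 itself was counted from the end of the transcript and does not check the genotype: amnion-like cells at Day 14 held 144 and 191 CPM of ISL1 in wild-type libraries and 142 and 189 CPM in mutant ones.

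The 6 genes occupied different lineages. GSC transcripts were found mainly in endoderm-like cells, TBXT and MESP1 mainly in mesoderm-like cells of wild-type libraries, and EOMES and MIXL1 in both. FOXH1 was found in endoderm-like cells and in every class of Epi-derived-like cells. Of the 282 UMIs of TBXT in the series, 81.6% lay in mesoderm-like cells, 11.7% in epiblast-like cells and 0.709% in endoderm-like cells. In mutants, where TBXT had few UMIs, epiblast-like cells held 7 and mesoderm-like cells 5 of 13 at Day 10, and epiblast-like cells held 5 of 6 in Day 12 replicate 1. Of the 14622 UMIs of MESP1, 85.8% were in mesoderm-like, 0.301% in endoderm-like and 10.3% in trophoblast-like cells, which were many and held 1.51 to 2.87 CPM. MIXL1 divided its 15384 UMIs into 72.3% in mesoderm-like, 10.5% in endoderm-like and 12.1% in trophoblast-like cells, the last at 1.35 to 4.58 CPM. EOMES placed 50.0% of its 3247 UMIs in mesoderm-like and 38.0% in endoderm-like cells. For GSC, 83.1% of 5390 UMIs were in endoderm-like cells and 12.3% in mesoderm-like cells. FOXH1 was the most spread, with 44.7% of 38011 UMIs in mesoderm-like, 31.3% in epiblast-like and 8.22% in endoderm-like cells. These shares also follow the number of cells in each class and the depth of each library.

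**Figure D1:**
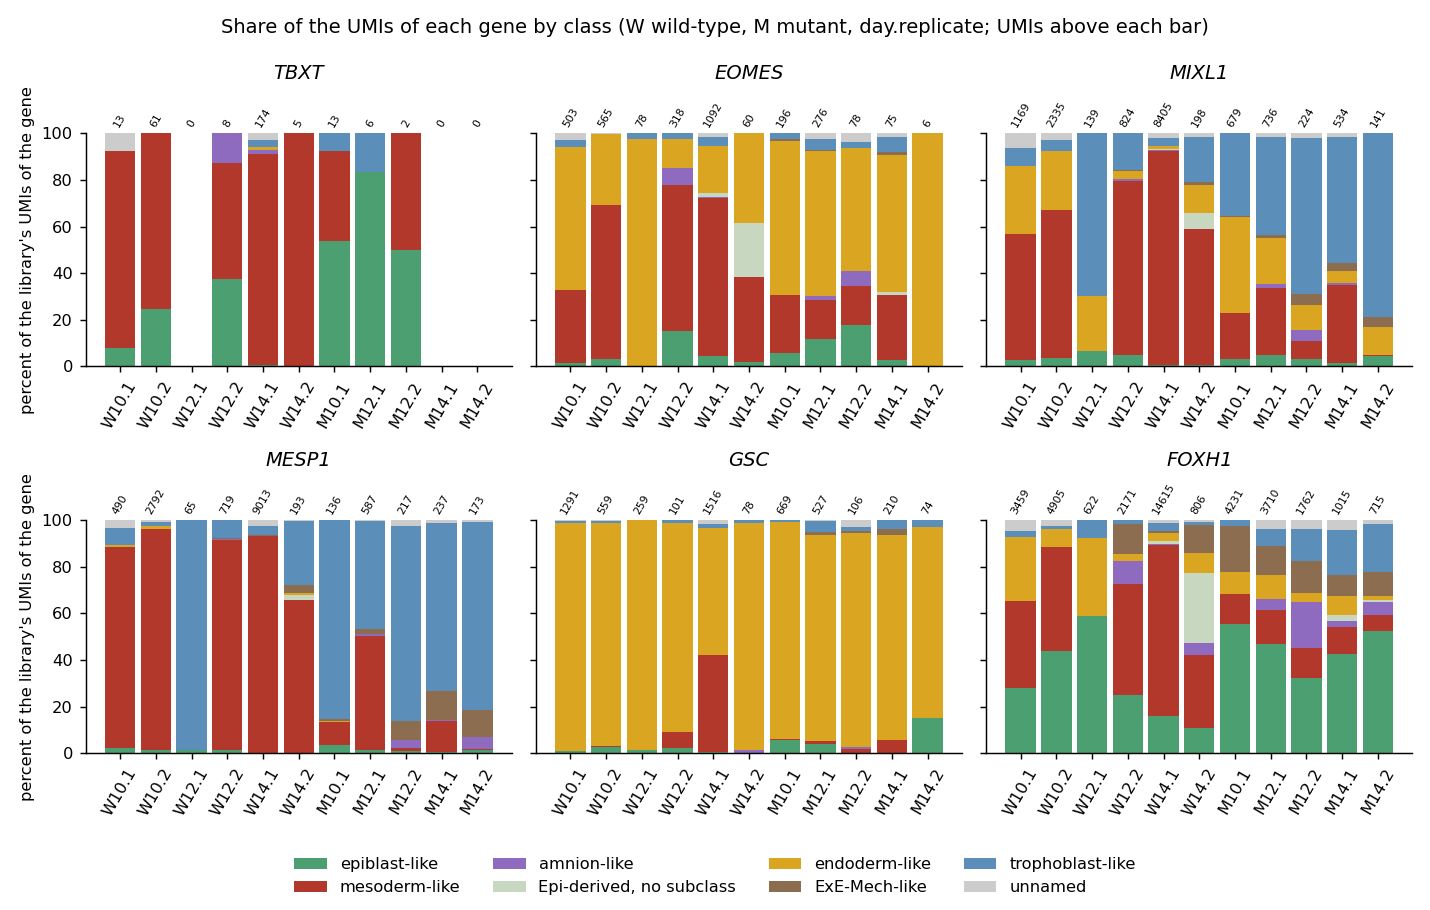
Stacked bars give, for each gene, the percent of a library's UMIs of that gene in each cell class, with 1 bar per library (W wild-type, M mutant, then day and replicate) and the number of UMIs above it. Endoderm-like cells held 54.5 to 98.8% of a library's GSC UMIs, and mesoderm-like cells held 65.8 to 94.5% of the MESP1 UMIs in the 5 wild-type libraries that had such cells and 0.578 to 48.9% in the mutant libraries.

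GSC was the endoderm gene of the group. In wild-type endoderm-like cells it stood at 464 and 301 CPM at Day 10, 209 and 225 CPM at Day 12, and 375 and 151 CPM at Day 14. In mutant libraries it stood at 303 CPM at Day 10, 237 and 269 CPM at Day 12, and 232 and 362 CPM at Day 14. No library of either genotype came near the other classes: the lowest endoderm-like value was 151 CPM, the highest mesoderm-like value 47.0 CPM, and the median over libraries was 269 CPM against 1.99 CPM. Epiblast-like (0 to 8.43 CPM), amnion-like (0 to 3.60 CPM) and mesoderm-like cells overlapped in their GSC levels. In Epi-derived-like cells GSC was between 0.374 and 4.32 CPM in 10 libraries and at 24.5 CPM in wild-type Day 14 replicate 1. That library alone held 629 GSC UMIs in its mesoderm-like cells, where 33.1% of 284 cells had a UMI (95% exact binomial interval 27.7 to 38.9%, counting error only), while wild-type Day 14 replicate 2 had 0 of 23 mesoderm-like cells, which by a count of 3 allows a share of cells with a UMI of up to 13.0%.

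EOMES was present in both endoderm-like and mesoderm-like cells. Wild-type endoderm-like cells held 114 and 96.6 CPM at Day 10, 62.2 and 96.3 CPM at Day 12, and 101 and 45.7 CPM at Day 14. Mutant endoderm-like cells held 63.3 CPM at Day 10, 87.5 and 114 CPM at Day 12, and 55.1 and 35.6 CPM at Day 14. The genotypes overlapped at Day 12 and Day 14 but not at Day 10, where there was 1 mutant library. The mesoderm-like range over libraries, 0 to 110 CPM with a median of 47.0 CPM, overlapped the endoderm-like range of 35.6 to 114 CPM with a median of 87.5 CPM. Lower down followed amnion-like cells (0 to 26.0 CPM) and epiblast-like cells (0 to 16.3 CPM), which overlapped, and trophoblast-like cells did not exceed 0.774 CPM.

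MIXL1, a homeodomain factor of the streak that promotes mesoderm and endoderm, had its highest median over libraries in mesoderm-like cells, 214 CPM against 66.7 CPM in endoderm-like cells, although the ranges overlapped. Wild-type mesoderm-like cells held 225 and 227 CPM at Day 10, 339 CPM in the Day 12 library that had such cells, and 578 and 203 CPM at Day 14. In endoderm-like cells the wild-type libraries held 127 and 331 CPM at Day 10, 27.0 and 66.7 CPM at Day 12, and 44.5 and 47.7 CPM at Day 14. Mutant endoderm-like cells held 136 CPM at Day 10, 75.3 and 66.5 CPM at Day 12, and 33.8 and 101 CPM at Day 14. Both wild-type Day 10 values were above every later wild-type value in endoderm-like cells, and at that day one of them was above both mesoderm-like values. In the mutant Day 10 library endoderm-like cells also held more than mesoderm-like cells (43.3 CPM). The ranges of mesoderm-like (4.02 to 578 CPM) and endoderm-like cells (27.0 to 331 CPM) overlapped, and those of amnion-like (0 to 18.4 CPM) and epiblast-like cells (1.38 to 13.5 CPM) lay below the lowest endoderm-like library.

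MESP1 and TBXT, the mesoderm genes of the group, were almost missing from endoderm-like cells. MESP1 there was 1.10 and 20.8 CPM in wild-type Day 10 libraries, 0 and 0 at Day 12, and 0.454 and 3.98 CPM at Day 14, and in mutants it was 0.487 CPM at Day 10 and 0 in the other 4 libraries. TBXT was at 0 in endoderm-like cells of 10 libraries and had 2 UMIs (0.908 CPM) in wild-type Day 14 replicate 1. In wild-type mesoderm-like cells, MESP1 was 151 and 402 CPM at Day 10, 355 CPM at Day 12, and 626 and 223 CPM at Day 14. In the same cells TBXT was 3.92 and 7.01 CPM at Day 10, 2.20 CPM at Day 12, and 11.8 and 8.76 CPM at Day 14. Across classes, the MESP1 range of mesoderm-like cells (4.02 to 626 CPM) overlapped those of amnion-like (0 to 15.0 CPM) and endoderm-like cells (0 to 20.8 CPM), with mutant libraries at its lower end.

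TBXT rested on few molecules. The library sums were 13 and 61 UMIs in wild-type Day 10 libraries, 0 and 8 at Day 12, and 174 and 5 at Day 14, and 13 UMIs in the mutant Day 10 library, 6 and 2 at Day 12, and 0 and 0 at Day 14. Wild-type Day 14 replicate 1 thus held most TBXT transcripts of the series. There, 98 of 284 mesoderm-like cells (34.5%) had a TBXT UMI, with a 95% exact binomial interval of 29.0 to 40.4%, and no cell had more than 6. Of the trophoblast-like cells of that library, which should lack TBXT, 0.212% had a UMI, with a median depth of 49351 UMIs against 43361 in the mesoderm-like cells.

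FOXH1 was the gene detected in most cells and lineages. In wild-type mesoderm-like cells it was 457 and 334 CPM at Day 10, 565 CPM at Day 12, and 804 and 440 CPM at Day 14, and in wild-type epiblast-like cells it was 135 and 121, 191 and 185, and 213 and 157 CPM at the same days. The median over all libraries was 373 CPM in mesoderm-like, 191 CPM in epiblast-like, 189 CPM in endoderm-like and 134 CPM in amnion-like cells, and neighbours in that order overlapped in range. Extraembryonic mesenchyme-like cells held 3.29 to 124 CPM, with the highest value in the mutant Day 10 library and the next, 39.1 CPM, in wild-type Day 12 replicate 2. Trophoblast-like cells were lowest, at 0.514 to 3.97 CPM.

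**Figure D2:**
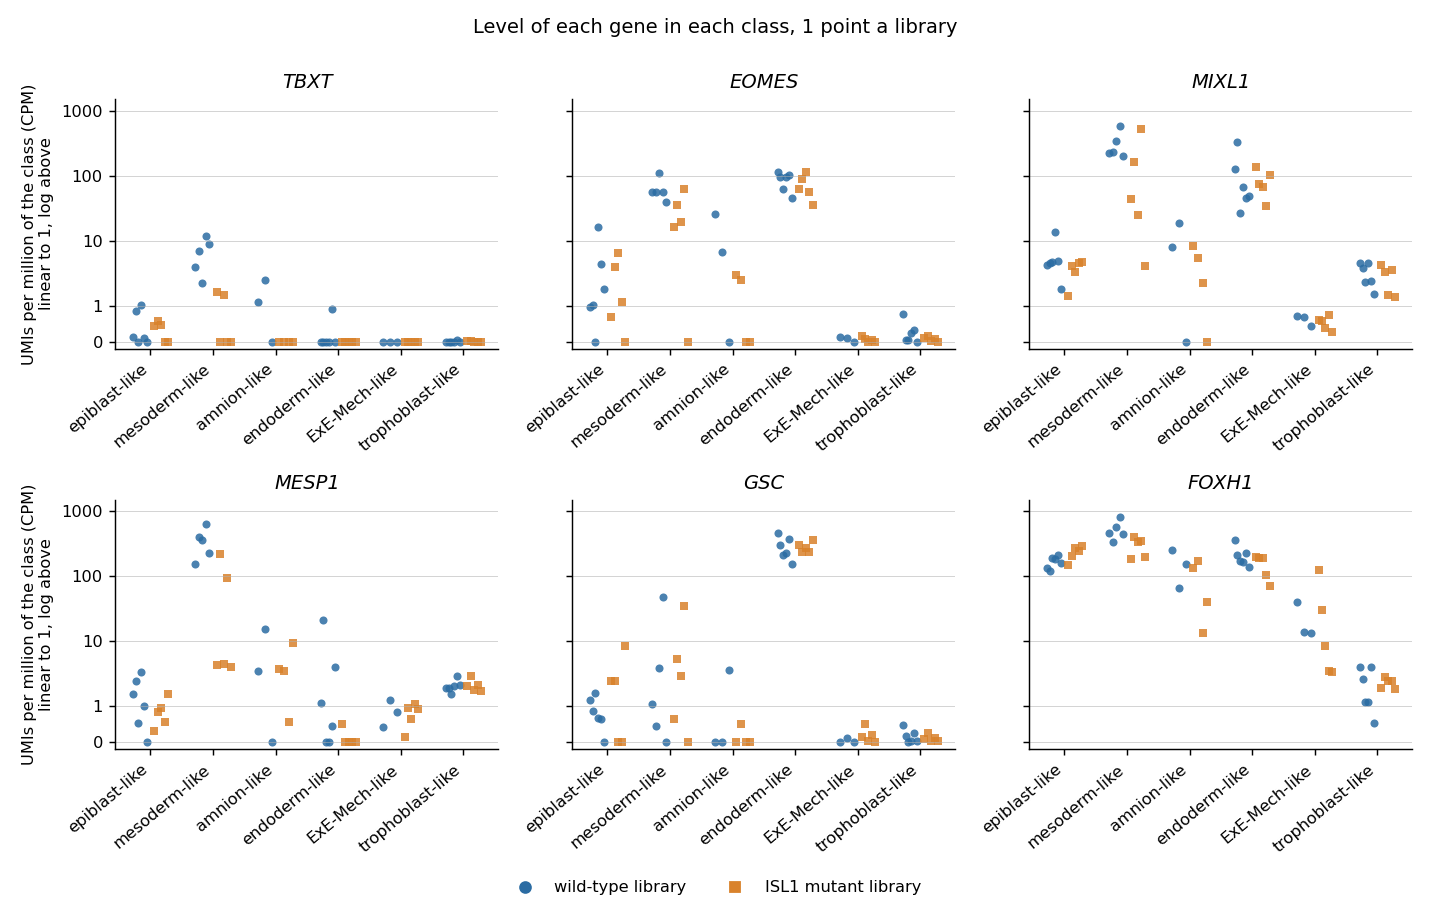
Level of each gene in CPM by cell class, on an axis that is linear up to 1 CPM and logarithmic above, with 1 point per library and colours for wild-type and mutant embryos. GSC in endoderm-like cells (151 to 464 CPM) lay above every other class, whereas the mesoderm-like points of MESP1 ran from 4.02 to 626 CPM.

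The difference between lineages was tested within wild-type libraries with edgeR's quasi-likelihood test on UMIs summed per library and class, with the library as a block and Benjamini-Hochberg adjustment at a false discovery rate of 1%. The classes were formed from other genes of the same cells, so the tests describe these classes and are not independent of the way the cells were grouped. In endoderm-like against Epi-derived-like cells, 2 of the 6 genes were higher and 2 were lower, beside 18.6% of all tested genes called higher and 20.5% called lower. GSC was higher by 6.76 ± 0.63 (SE) on the log2 scale (adjusted p = 3.62e-07, edgeR, Benjamini-Hochberg) and EOMES by 2.21 ± 0.48 (adjusted p = 0.00112). MESP1 was called lower, but wild-type endoderm-like cells held only 40 of its UMIs at Day 10, 0 at Day 12 and 3 at Day 14. It passed the filter on low counts through the Epi-derived-like cells, so no fold is given and its call is no support. TBXT had 2 UMIs in endoderm-like cells and passed the filter on low counts through the Epi-derived-like cells, so no fold is given and its call is no support. That call was lost with DESeq2 (adjusted p = 0.113) and, in edgeR, without wild-type Day 14 replicate 1 (adjusted p = 0.0428), the only library with a TBXT UMI in endoderm-like cells, or without the library block (adjusted p = 0.0131). MIXL1 (0.05 ± 0.61, adjusted p = 0.957, edgeR, Benjamini-Hochberg) and FOXH1 (-0.50 ± 0.35, adjusted p = 0.247) did not pass.

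Among the other genes of gastrulation, 16 were tested in this comparison, and 6 were higher and 3 lower in endoderm-like cells. The higher ones were OTX2 (7.66 ± 0.58 log2), FOXA2 (7.50 ± 0.57) and SOX17 (6.63 ± 0.70), transcription factors known from anterior and definitive endoderm, together with the cadherin CDH2 (5.17 ± 0.51), the LIM factor LHX1 (3.75) and the NODAL-related ligand GDF3 (1.83). The lower ones were the growth factor FGF4 (-9.34 ± 0.73) and the WNT ligands WNT5B (-2.53 ± 0.39) and WNT8A (-4.96). Their UMIs in endoderm-like cells are not given here, so these are fitted values and not measured sizes of change. GSC thus stood among OTX2, FOXA2 and SOX17 by the size of its difference, and EOMES between LHX1 and GDF3.

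Trophoblast-like and extraembryonic mesenchyme-like cells were compared with Epi-derived-like cells in the same way. In trophoblast-like cells FOXH1 (-6.97 ± 0.45 log2), MESP1 (-4.96 ± 0.76) and MIXL1 (-4.53 ± 0.65) were called lower, beside 25.6% of tested genes (every adjusted p at most 0.000132, edgeR quasi-likelihood test, Benjamini-Hochberg). TBXT had 5 UMIs there, all in wild-type Day 14 replicate 1, and EOMES and GSC did not exceed 0.774 and 0.464 CPM. They passed the filter on low counts through other classes, so no folds are given and their calls are no support. In extraembryonic mesenchyme-like cells FOXH1 (-3.55 ± 0.52 log2) was called lower, beside 13.0% of tested genes. It had 498 UMIs there in the 3 wild-type libraries and an adjusted p of at most 0.000209 (edgeR, Benjamini-Hochberg). MIXL1 and MESP1 had 14 and 20 UMIs in those cells, and TBXT, GSC and EOMES had 0, 1 and 2. These genes passed the filter on low counts through other classes, where they were higher, so no folds are given and their calls are not counted. Of the other gastrulation genes, 12 of 16 were lower in trophoblast-like cells. In mesenchyme-like cells, SNAI2 (6.28 log2), a repressor of epithelial genes, and CDH2 (2.85 log2) were higher and 7 were lower.

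Single cells showed which of the genes were detected together. Wild-type mesoderm-like cells at Day 14 with a TBXT UMI (103 cells) also had a UMI of MIXL1 in 98.1%, of EOMES in 75.7%, of MESP1 in 71.8% and of GSC in 43.7%. The 204 such cells without a TBXT UMI had MIXL1 in 84.8%, EOMES in 61.3%, MESP1 in 60.3% and GSC in 24.0%. The cells with TBXT were also deeper, with a median of 47940 UMIs against 39013.5, and the part of depth in these shares was not tested. Replicate 1 gave 98 of the 103 cells, and within it the shares were 98.0 against 88.2% for MIXL1, 76.5 against 64.5% for EOMES, 71.4 against 61.3% for MESP1 and 45.9 against 26.3% for GSC (median 49650.5 against 40511 UMIs).

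GSC-positive cells differed by lineage in what else they held. Mesoderm-like cells with a GSC UMI at wild-type Day 14 all came from replicate 1. Within that library the 94 cells with GSC had MESP1 in 86.2% and EOMES in 93.6%, and the 190 without had 54.2% and 56.3%, with a median of 46427 against 41837.5 UMIs, and the part of depth was not tested. In endoderm-like cells of the same library, the 44 cells with GSC had EOMES in 79.5%, MIXL1 in 56.8% and MESP1 in 2.27%, and 3 cells were without GSC. In endoderm-like cells of replicate 2, the 14 cells with GSC had EOMES in 64.3% and MIXL1 in 57.1%, and the 19 without had 15.8% and 5.26%, at a like depth (median 14287 against 14351 UMIs). MESP1 was therefore found with GSC in mesoderm-like and hardly in endoderm-like cells. In endoderm-like cells of mutant Day 14 replicate 1, the 49 cells with GSC had EOMES in 36.7% and MIXL1 in 22.4%, and the 59 without had 13.6% and 6.78% (median 5552 against 6343 UMIs).

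At least 4 of the 6 genes were found together in many mesoderm-like cells. The share was 53.7 and 67.3% of mesoderm-like cells in wild-type Day 10 libraries, 35.2% at Day 12, and 64.1 and 30.4% at Day 14. In the mutant Day 10 library it was 19.4%, followed by 12.0 and 0% on Day 12 and by 16.1 and 0% on Day 14. Every mutant library lay below every wild-type library. No amnion-like class was named at Day 10, where mutant mesoderm-like cells held 49.8 CPM of ISL1 against a wild-type mean of 5.29 CPM. The median mesoderm-like cell held 58472 and 107463 UMIs in wild-type and 73938 in mutant libraries at Day 10. It held 33753.5 against 16872 and 18190 UMIs on Day 12, and 43361 and 23732 against 9697 and 28422 UMIs on Day 14. Mutant cells were thus shallower in both Day 12 libraries and in 1 of the Day 14 libraries, and the part of depth in these shares was not tested. All 6 genes were found in 36 cells of wild-type Day 14 replicate 1 and 1 cell of wild-type Day 10 replicate 2. In endoderm-like cells at least 4 genes were found in 50.0 and 52.4%, 31.2 and 36.8%, and 46.8 and 18.2% of wild-type cells at Day 10, 12 and 14, and in 66.7%, 25.6 and 32.0%, and 3.70 and 18.2% of mutant cells. The median endoderm-like cell at Day 14 held 34795 and 14351 UMIs in wild type and 5809.5 and 13244 in mutants. The part of depth in the endoderm-like shares was not tested either.

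**Figure D3:**
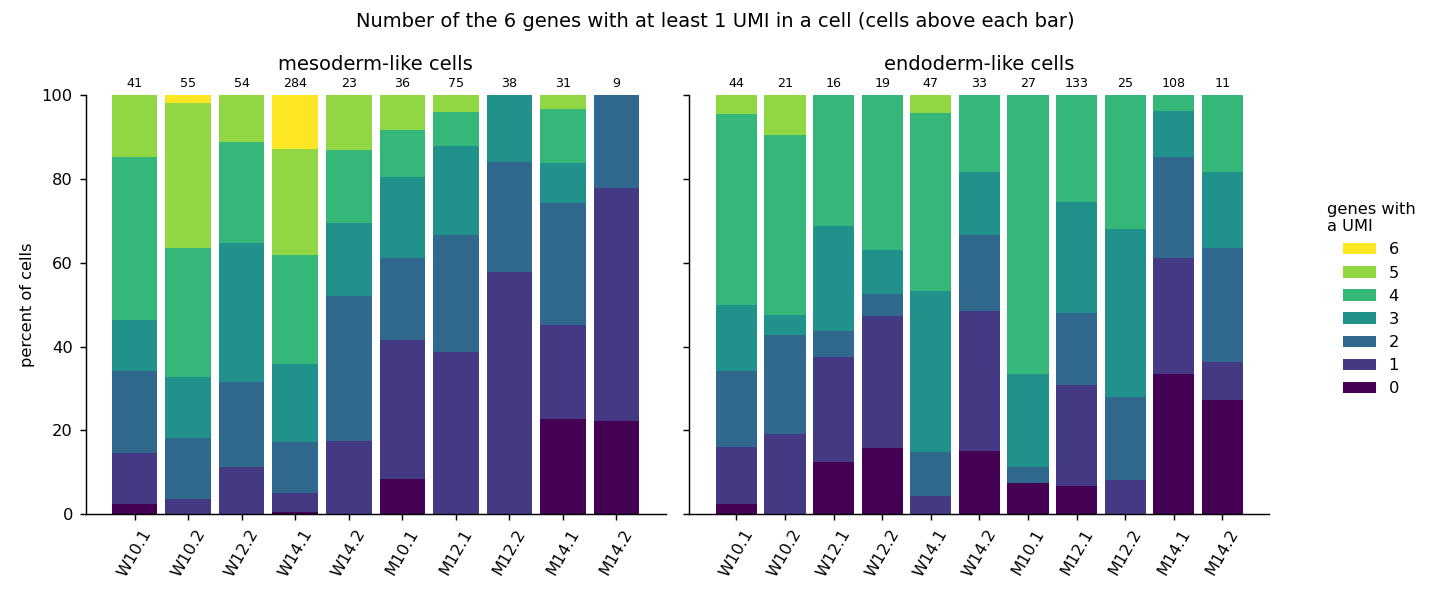
Share of cells, in percent, in which 0 to 6 of the genes had a UMI, for mesoderm-like and endoderm-like cells of each library (W wild-type, M mutant, then day and replicate), with the number of cells above each bar. At least 4 genes were found in 30.4 to 67.3% of wild-type and 0 to 19.4% of mutant mesoderm-like cells, while the endoderm-like shares of the genotypes overlapped.

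The genes also differed in which other genes followed their levels over 52 sums of a library and a class (Pearson r of log2(CPM + 1), a description, since the sums share libraries). Likeness was computed against the 1018 other genes with a symbol, a set taken from the paper's lists of genes from these same data. GSC was most like OTX2 (0.957), FOXA2 (0.955) and FOXA1 (0.933). EOMES was most like MIXL1 (0.919), SP5 (0.909) and LHX1 (0.895). MIXL1 was most like EOMES (0.919), FGF17 (0.845) and LRIG3 (0.808), and SP5 and FGF17 were themselves used to name mesoderm-like cells. MESP1 was most like its paralog MESP2 (0.809), WNT8A (0.797) and HOXA3 (0.796), and TBXT was most like HES7 (0.851), SCD5 (0.800) and GLMN (0.751). How any reads shared by the paralogs MESP1 and MESP2 were counted is not given in the sources used here. FOXH1 was most like SERINC3 (0.939), CXADR (0.935) and HACD1 (0.930). Between the 6 genes, r was 0.92 for EOMES and MIXL1, 0.75 for EOMES and GSC, 0.73 for TBXT and MESP1, and 0.69 for MIXL1 and MESP1, but -0.02 for TBXT and GSC and 0.02 for MESP1 and GSC. Over the 25 wild-type sums alone, MESP1 kept HOXA3 and WNT8A, EOMES kept SP5 and MIXL1, FOXH1 kept HACD1 and SERINC3, and TBXT, MIXL1 and GSC kept 1 each of HES7, EOMES and OTX2.

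Wild-type Epi-derived-like cells were compared between Day 14 and Day 10. GSC was 1.20 and 0.742 CPM at Day 10 and 24.5 and 0.374 CPM at Day 14. FOXH1 was 225 and 179 CPM at Day 10 and 512 and 233 CPM at Day 14, with both Day 14 values above both Day 10 values, a pattern that 23.9% of genes with at least 10 UMIs shared. TBXT was 1.20 and 2.52 CPM at Day 10 and 6.22 and 1.87 CPM at Day 14, EOMES was 16.4 and 16.1 CPM and then 31.2 and 13.8 CPM, MIXL1 was 66.1 and 64.8 CPM and then 301 and 48.6 CPM, and MESP1 was 43.3 and 111 CPM and then 323 and 49.0 CPM. For these 4 genes and GSC, replicate 1 was the high Day 14 library. Replicate 2 lay between the Day 10 values for TBXT and MESP1 and below both for EOMES, MIXL1 and GSC. None of the 6 genes was called between the days by edgeR or by DESeq2, where 0.0403% of all tested genes were called by edgeR and 1.20% of the whole matrix by DESeq2, and 2 had an unadjusted p under 0.05 (16.1% of all tested genes did). The fitted log2 differences were 3.87 ± 1.11 for GSC (adjusted p = 0.125, edgeR quasi-likelihood, Benjamini-Hochberg), 1.44 ± 1.21 for MIXL1, 1.31 ± 1.32 for MESP1, 1.23 ± 0.72 for TBXT, 0.88 ± 0.37 for FOXH1 and 0.52 ± 1.05 for EOMES. Without wild-type Day 14 replicate 1, 5 of the 6 changed sign, to -1.33 for GSC, -0.67 for MESP1, -0.46 for MIXL1, -0.26 for EOMES and -0.049 for TBXT.

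Replicate 1 of wild-type Day 14 held a larger share of mesoderm-like cells, 51.1% of its Epi-derived-like cells against 20.5% in replicate 2, or 52.3 against 39.0% when the 53 of 112 cells of replicate 2 and 13 of 556 cells of replicate 1 without a subclass are left out. Its median Epi-derived-like cell held 43860 UMIs against 21736. The part of either in the difference between these replicates was not tested. In sums over cells of several kinds, fewer cells that express a gene and less RNA of it per cell cannot be told apart.

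At Day 14 the study asked what the loss of ISL1 did to gastrulating embryos, with 2 libraries of each genotype. Over all cells of a library, all 6 genes were lower in both mutant libraries than in both wild-type libraries, beside 23.6% of the tested genes with that pattern. TBXT, with 0 UMIs in both mutant libraries, is no support in this count. The mean level was 11.8-fold lower in mutants for EOMES, 9.54-fold for MIXL1, 16.4-fold for MESP1, 4.54-fold for GSC and 7.19-fold for FOXH1. These means rest largely on wild-type Day 14 replicate 1, which held 6.63 CPM of EOMES, 51.0 of MIXL1, 54.7 of MESP1, 9.20 of GSC and 88.7 of FOXH1, against 1.64, 5.40, 5.27, 2.13 and 22.0 CPM in replicate 2. The fitted log2 difference was -3.60 for EOMES, -3.31 for MIXL1, -4.07 for MESP1, -2.22 for GSC and -2.86 for FOXH1, and without replicate 1 it was -2.10, -0.75, -1.39, -0.65 and -1.38. TBXT had a wild-type mean of 0.596 CPM and 0 UMIs in both mutant libraries, at least 44.5-fold lower against a floor of 3 UMIs over the mutant group, and at least 10.2-fold without wild-type replicate 1. None was called by edgeR at a false discovery rate of 1%, as was no other gene (0.0% of those tested), and 5 of the 6 had an unadjusted p under 0.05, beside 12.9% of all tested genes. DESeq2 called 2, TBXT (adjusted p = 0.00339) and FOXH1 (adjusted p = 0.00352), among 320 genes, 1.65% of the whole matrix. TBXT entered the Day 14 genotype tests through the libraries where it was present, as both mutant libraries held 0 UMIs. Its calls and p-values in those tests, and its place in counts of genes lower in both mutant libraries, are therefore no support in any class. The median difference was -3.41 log2 over the 6 genes, -1.25 over the 18 other gastrulation genes tested and -0.03 over all genes tested. TBXT entered the median of the 6 at its bound, which is not a measured difference. The 6 and the 18 genes bear symbols from the paper's lists of genes from these same data, so their medians are a description.

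Epi-derived-like cells made a small part of the mutant libraries, so the comparison was repeated inside them. TBXT was 6.22 and 1.87 CPM in wild-type Day 14 libraries and 0 and 0 in mutants, where 0 of 477 and 0 of 91 cells had a UMI, which by a count of 3 allows shares of cells with a UMI of up to 0.629% and 3.30%. In wild type, 18.3% of 556 cells and 4.46% of 112 cells had one (95% exact binomial intervals 15.2 to 21.8% and 1.47 to 10.1%). After thinning each cell to 5000 UMIs the wild-type shares were 2.99 and 0.903%. In mutants 303 of 477 and 89 of 91 cells were deep enough to enter, with 0 TBXT UMIs. By a count of 3 these cells do not exclude a share of 0.903%, and those of replicate 2 do not exclude 2.99% either. The mean TBXT level was at least 8.95-fold lower in mutants (4.14-fold without wild-type replicate 1). With 0 UMIs in both mutant libraries, TBXT passed the filter on low counts through other libraries. Its adjusted p of 0.0478 (edgeR quasi-likelihood, Benjamini-Hochberg), which misses 1%, is therefore no support.

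MESP1 was 323 and 49.0 CPM in wild-type Day 14 Epi-derived-like cells and 8.31 and 4.72 CPM in mutant ones. EOMES was 31.2 and 13.8 CPM in wild type and 5.87 and 0 CPM in mutants, and MIXL1 was 301 and 48.6 CPM in wild type and 46.7 and 2.75 CPM in mutants. FOXH1 was 512 and 233 CPM in wild type and 147 and 185 CPM in mutants. For each of these genes both mutant libraries were below both wild-type libraries, narrowly so for MIXL1, whose higher mutant library (46.7 CPM) was close to the lower wild-type one (48.6 CPM). GSC was 24.5 and 0.374 CPM in wild type and 2.93 and 4.32 CPM in mutants, and its groups overlapped.

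The mean level was 28.6-fold lower in mutants for MESP1, 7.68-fold for EOMES, 7.08-fold for MIXL1 and 2.25-fold for FOXH1. As fitted, the log2 differences were -4.81 ± 1.61 for MESP1 (adjusted p = 0.110, edgeR, Benjamini-Hochberg), -1.13 ± 0.38 for FOXH1 (adjusted p = 0.108), -2.82 ± 1.27 for EOMES (adjusted p = 0.207), -2.83 ± 1.30 for MIXL1 (adjusted p = 0.214) and -1.91 ± 1.08 for GSC (adjusted p = 0.308). Without wild-type Day 14 replicate 1 they were -2.83 for MESP1, -0.41 for FOXH1, -2.03 for EOMES, -0.92 for MIXL1 and 3.27 for GSC, which had 1 UMI in the remaining wild-type library. Without mutant Day 14 replicate 1 the MIXL1 difference was -5.90, and EOMES had 0 UMIs in the remaining mutant library. None of the 6 genes passed 1%, as 0.137% of all tested genes did, 3 had an unadjusted p under 0.05 (24.4% of all tested genes did), and DESeq2 called 0, beside 2.83% of the whole matrix. Without the filter on low counts, edgeR called all 6 genes, among 1059 genes instead of 17, and the cause was not tested. In 5 of the 6 genes every mutant library was below every wild-type library, beside 27.6% of all tested genes, and TBXT is no support in this count. TBXT also entered the median of the 6 at its bound, and the medians are again a description. The median difference was -2.88 log2 over the 6 genes and -0.70 over the 18 other gastrulation genes, of which 0 were called at 1% and 5 had an unadjusted p under 0.05. Among the latter, WNT5B stood at -2.62 ± 0.41 (adjusted p = 0.0170, edgeR, Benjamini-Hochberg) and WNT8A, another WNT ligand, at -3.30 ± 1.15.

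The makeup of the Epi-derived-like cells differed between genotypes at the same day. Mesoderm-like cells were 51.1 and 20.5% of them in wild type and 6.50 and 9.89% in mutants, and amnion-like cells were 7.19 and 13.4% in wild type and 53.2 and 57.1% in mutants. The median depth was 43860 and 21736 UMIs per cell in wild type and 6679 and 18895 in mutants. In wild-type replicate 2, 53 of the 112 Epi-derived-like cells received no subclass, against 13 of 556 in replicate 1 and 13 of 477 and 1 of 91 in mutants. Among cells with a subclass, mesoderm-like cells were 52.3 and 39.0% in wild type and 6.68 and 10.0% in mutants, and amnion-like cells were 7.37 and 25.4% in wild type and 54.7 and 57.8% in mutants. The part of class makeup and of depth in the Epi-derived-like differences is partly addressed by the values within classes and after thinning that follow.

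Mesoderm-like cells at Day 14 numbered 284 and 23 in wild type and 31 and 9 in mutants. The wild-type mean over the mutant mean there was 8.71 for MESP1, 2.31 for FOXH1, 1.53 for EOMES, 1.48 for MIXL1 and 1.34 for GSC, and the difference from the ratios in all Epi-derived-like cells was not tested. MESP1 was 626 and 223 CPM in wild type and 93.4 and 4.02 CPM in mutants, which did not overlap, and the last value was 1 UMI. FOXH1 was 804 and 440 CPM in wild type and 342 and 197 CPM in mutants, also without overlap. TBXT was 11.8 and 8.76 CPM in wild type and 0 and 0 in mutants, where the floor of 3 UMIs was 8.76 and 12.1 CPM, so that the mean difference was bounded at only 2.03-fold.

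EOMES (55.4 and 38.6 CPM in wild type, 61.3 and 0 in mutants), MIXL1 (578 and 203 CPM against 523 and 4.02 CPM) and GSC (47.0 and 0 CPM against 35.0 and 0 CPM) overlapped. Mutant replicate 1 was thus near wild type in EOMES and MIXL1, and replicate 2, with 9 cells, had 1 UMI of MIXL1 and none of EOMES. The fitted differences were -1.28 ± 0.36 log2 for FOXH1 (adjusted p = 0.258, edgeR, Benjamini-Hochberg) and -3.13 ± 1.17 for MESP1 (adjusted p = 0.422). None of the 6 genes was called by edgeR, beside 0.00997% of all tested genes, 3 had an unadjusted p under 0.05 (9.85% of all tested genes did), and DESeq2 called 0, beside 0.196% of the whole matrix. Every mutant library was below every wild-type library in 3 of the 6 genes, beside 20.1% of all genes, and TBXT is no support in this count. The median difference was -0.82 log2 over the 6 genes, -1.08 over the 16 other gastrulation genes tested and 0.04 over all genes. TBXT entered the median of the 6 at its bound, which is not a measured difference.

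After thinning to 5000 UMIs per cell, mesoderm-like cells with a MESP1 UMI were 47.7 and 33.9% in wild-type Day 14 libraries and 7.46 and 1.48% in mutant ones. For FOXH1 the thinned shares were 89.5 and 85.8% in wild type and 64.0 and 48.8% in mutants. Both pairs were separate at matched depth. The unthinned MESP1 shares were 64.8 and 56.5% in wild type and 9.68 and 11.1% in mutants, with 95% exact binomial intervals of 58.9 to 70.3%, 34.5 to 76.8%, 2.04 to 25.8% and 0.281 to 48.2%.

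**Figure D4:**
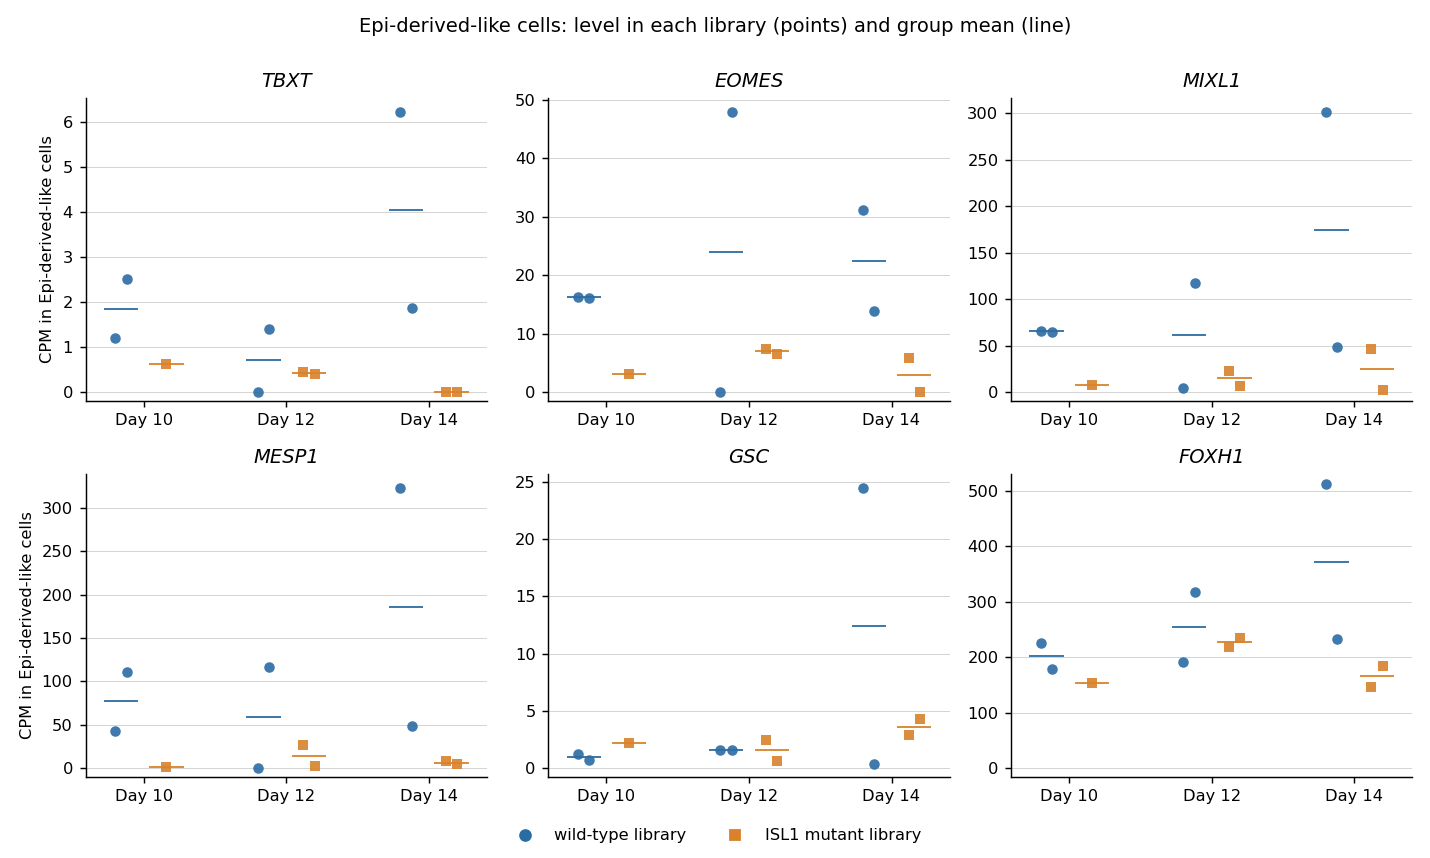
Level of each gene in CPM in Epi-derived-like cells by day, on a linear axis of its own for each gene, with 1 point per library and a line at the mean of each genotype. At Day 14 the mutant points lay below both wild-type points for every gene but GSC, and at Day 12 wild-type replicate 1, with 14 cells, was at 0 CPM for TBXT and EOMES.

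Endoderm-like cells at Day 14 overlapped between genotypes for GSC, MIXL1 and EOMES. GSC was 375 and 151 CPM in wild type and 232 and 362 CPM in mutants (0.08 ± 0.42 log2), and MIXL1 was 44.5 and 47.7 CPM in wild type and 33.8 and 101 CPM in mutants (0.31 ± 0.59 log2). Both mutant libraries lay between the wild-type ones in GSC, and on either side of them in MIXL1. EOMES was 101 and 45.7 CPM in wild type and 55.1 and 35.6 CPM in mutants (-0.66 ± 0.44 log2). FOXH1 was 224 and 139 CPM in wild type and 105 and 71.2 CPM in mutants, with both mutant libraries below both wild-type ones, by 2.06-fold in the mean (-1.01 ± 0.38 log2, adjusted p = 0.637, edgeR, Benjamini-Hochberg).

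MESP1 was 0.454 and 3.98 CPM in wild-type endoderm-like cells and 0 in mutants, where 3 UMIs would amount to 3.76 and 17.8 CPM, so a difference was not detectable at this depth. Of the 6 genes 5 passed the filter on low counts in endoderm-like cells, all but TBXT. None was called, as was no other gene (0.0%), 1 of the 5 had an unadjusted p under 0.05 (7.24% of all tested genes did), and DESeq2 called 0, beside 0.103% of the whole matrix. In 2 of the 5, FOXH1 and MESP1, every mutant library was below every wild-type library, beside 19.8% of all genes. MESP1 had that pattern on 3 wild-type UMIs, so it is no support. The classes held 47 and 33 wild-type and 108 and 11 mutant cells.

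Amnion-like cells, in which ISL1 was measured at similar levels in both genotypes, held little of the streak genes other than FOXH1. FOXH1 was 65.1 and 151 CPM in wild-type Day 14 libraries and 13.3 and 39.8 CPM in mutant ones, 4.08-fold lower in the mean and without overlap (-1.87 ± 0.55 log2, adjusted p = 0.100, edgeR, Benjamini-Hochberg). MIXL1 was 18.4 and 0 CPM in wild type and 2.21 and 0 CPM in mutants, and EOMES was 6.68 and 0 CPM in wild type and 0 in both mutants. MESP1 was 15.0 and 0 CPM in wild type and 0.552 and 9.43 CPM in mutants. These last genes overlapped between genotypes.

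TBXT and GSC did not pass the filter in amnion-like cells. Of the 4 genes tested, 0 were called by edgeR, beside 0.109% of all tested genes, 3 had an unadjusted p under 0.05 (21.2% of all tested genes did), and DESeq2 called 0, beside 0.821% of the whole matrix. EOMES had 8 wild-type and 0 mutant UMIs at Day 14, MIXL1 22 and 4, and MESP1 18 and 10. These genes were at 0 CPM in wild-type replicate 2, and EOMES passed the filter through other libraries. Their p-values here are therefore no support. Every mutant library was below every wild-type library in 1 of the 4 genes, beside 28.2% of all tested genes. At Day 12 FOXH1 in amnion-like cells was 248 CPM in the wild-type library that had such cells and 134 and 170 CPM in mutants.

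At Day 12 the genotypes overlapped in Epi-derived-like cells. In wild-type Epi-derived-like cells EOMES was 0 and 47.9 CPM, MIXL1 4.71 and 117 CPM, and MESP1 0.524 and 117 CPM. In mutants EOMES was 7.38 and 6.61 CPM, MIXL1 23.0 and 7.23 CPM, and MESP1 26.6 and 2.48 CPM. Wild-type replicate 1, with 14 Epi-derived-like cells and none that were mesoderm-like, was below the mutants in all 3 genes, and replicate 2, with 155 cells, above them. Without the subcluster led by CGA, wild-type replicate 2 held 47.9 CPM of EOMES, 132 of MIXL1, 137 of MESP1 and 326 of FOXH1, and the mutants held 6.45 and 5.07, 27.1 and 7.35, 32.8 and 2.79, and 212 and 217 CPM of the same genes. GSC was then 1.89 CPM in wild-type replicate 2 and 2.45 and 0.760 CPM in mutants. TBXT was 1.05 CPM in wild-type replicate 2 and 0.111 and 0.253 CPM in mutants, with 1 UMI in each mutant library, so 5 of the 7 TBXT UMIs of the mutants lay in that subcluster. Leaving it out, an alternative chosen after the data were seen, changed no call and no direction of the 6 genes in the Epi-derived-like fits.

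TBXT at Day 12 was 0 and 1.41 CPM in wild type and 0.445 and 0.413 CPM in mutants, GSC was 1.57 and 1.59 CPM against 2.49 and 0.620 CPM, and FOXH1 was 191 and 317 CPM against 219 and 236 CPM. No gene of the 6 had every mutant library below every wild-type library, whether over all cells (16.5% of all genes) or in Epi-derived-like cells (15.0%). None was called in either, beside 0.0% and 0.00805% of all tested genes, and 0 had an unadjusted p under 0.05, while DESeq2 also called 0, beside 1.07% and 0.201% of the whole matrix. The fitted differences in Epi-derived-like cells ran from -1.96 ± 1.27 log2 for MIXL1 (adjusted p = 0.626, edgeR, Benjamini-Hochberg) to 0.13 ± 1.32 for GSC. Without wild-type replicate 2 the fitted difference was positive for all 6 genes, of which EOMES and TBXT had 0 UMIs in the remaining wild-type library of 14 cells.

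Mesoderm-like cells on Day 12 had 1 wild-type library, replicate 2, so the comparison has no replicate check on the wild-type side. EOMES was 110 CPM there and 34.8 and 19.0 CPM in mutants, MIXL1 was 339 CPM against 161 and 24.8 CPM, and MESP1 was 355 CPM against 217 and 4.38 CPM. FOXH1 was 565 CPM against 404 and 333 CPM, TBXT 2.20 CPM against 0 and 1.46 CPM, and GSC 3.84 CPM against 5.30 and 2.92 CPM. Both mutant libraries were thus below the wild-type one in all but GSC, a pattern found in 4 of the 5 genes with at least 10 UMIs and in 42.7% of all such genes. In endoderm-like cells on Day 12 the genotypes did not overlap in GSC (209 and 225 CPM in wild type, 237 and 269 CPM in mutants) or in FOXH1 (171 and 165 CPM against 192 and 189 CPM), both higher in mutants, beside 21.6% of genes.

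At Day 10 the only mutant library had less MESP1 than both wild-type libraries. In Epi-derived-like cells MESP1 was 43.3 and 111 CPM in wild type and 0.949 CPM in the mutant, 81.1-fold lower than the wild-type mean. With 1 mutant library the difference has no replicate check on the mutant side, and its error in the fit (-6.35 ± 2.36 log2, adjusted p = 0.987, edgeR, Benjamini-Hochberg) takes the spread of the other groups. MIXL1 was 66.1 and 64.8 CPM against 8.17 CPM, EOMES 16.4 and 16.1 CPM against 3.16 CPM, TBXT 1.20 and 2.52 CPM against 0.633 CPM, and FOXH1 225 and 179 CPM against 153 CPM. GSC alone was higher in the mutant, at 2.16 CPM against 1.20 and 0.742 CPM. The other 5 were below both wild-type libraries, beside 30.5% of genes with at least 10 UMIs. The mutant had 228 Epi-derived-like cells, of which 15.8% were mesoderm-like, against 24.7 and 23.3% in wild type.

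Within the mesoderm-like cells of Day 10, MESP1 was 151 and 402 CPM in wild type and 4.23 CPM in 36 mutant cells, and MIXL1 was 225 and 227 CPM against 43.3 CPM. These mutant cells held 49.8 CPM of ISL1 (153 UMIs), against a mean of 5.29 CPM in wild type. No amnion-like class was named at Day 10, and the part of amnion cells in these values was not tested. None of the 6 genes was called at Day 10 in Epi-derived-like cells by edgeR, beside 0.00805% of all tested genes, and DESeq2 called 0, beside 0.0671% of the whole matrix, while 1 of the 6, MESP1, had an unadjusted p under 0.05 (4.36% of all tested genes did).

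The change in the mutant effect from Day 12 to Day 14 in Epi-derived-like cells was tested as an interaction. TBXT, with 0 UMIs in both mutant Day 14 libraries, has no finite value in it (adjusted p = 0.511, edgeR, Benjamini-Hochberg). The change was -2.87 ± 2.02 log2 for MESP1, -2.05 ± 1.71 for GSC, -0.99 ± 1.68 for EOMES, -0.96 ± 0.53 for FOXH1 and -0.86 ± 1.74 for MIXL1. None was called by edgeR or DESeq2, and edgeR called no gene at all (0.0%) and DESeq2 0.191% of the whole matrix. An unadjusted p under 0.05 was found for 1 of the 6, TBXT, beside 8.87% of all tested genes. That p is no support, as TBXT had 0 UMIs in both mutant Day 14 libraries. A larger effect at Day 14 than at Day 12 is therefore not shown by these libraries for any of the 6 genes.

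FOXH1 lay apart between genotypes at Day 14 in epiblast-like, mesoderm-like, amnion-like and endoderm-like cells, and not always in the same direction. It was called in none of the mesoderm-like, amnion-like and endoderm-like classes, and epiblast-like cells were not tested. In epiblast-like cells, which held 219 and 21 wild-type and 179 and 29 mutant cells, FOXH1 was 213 and 157 CPM in wild type and 246 and 288 CPM in mutants, so that every mutant library was above every wild-type library, beside 22.2% of genes with at least 10 UMIs in these sums. The mutant libraries were the lower ones in the mesoderm-like, amnion-like and endoderm-like classes, and the difference between classes was not tested. A Day 14 epiblast-like subcluster of 183 cells was led by stress genes (DDIT3, DDIT4 and HMOX1), and its part in these values was not tested. In extraembryonic mesenchyme-like cells FOXH1 was 13.8 and 13.5 CPM in wild type and 3.47 and 3.29 CPM in mutants, with both mutant libraries lower, beside 22.8% of genes. FOXH1 was 1 of 5 genes with at least 10 UMIs in epiblast-like cells and 1 of 3 in mesenchyme-like cells. Such shares over all genes do not set FOXH1 apart. Trophoblast-marker transcripts, summed over 7 genes, stood at 64.3 to 993 CPM in Epi-derived-like cells over the libraries and at 22.2 to 1108 CPM in endoderm-like cells.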

How the data were processed

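Reads were aligned and counted by the authors with Cell Ranger 3.1.0, using the Ensembl gene models for Macaca fascicularis. The authors then filtered cells and genes and subtracted ambient RNA with SoupX, whose estimate came from choriogonadotropin transcripts in POU5F1-positive cells. The deposited corrected values are expected counts, that is, whole-number UMIs after that subtraction without scaling, and the deposited uncorrected values are counts. Of the uncorrected cells 209 are not in the corrected matrix and were left out. The subtraction removed 0% (TBXT) to 0.739% (FOXH1) of the UMIs of the 6 genes. Levels are UMIs scaled to the total of the same library and class (CPM) and are compared within a gene, not between genes. Symbols came from the identifier columns of the paper's supplementary tables, which name 18 of the 29 other gastrulation genes listed. Those tables list genes that the paper reported from these same data, among them genes that differed between genotypes. The genes with a symbol are therefore a selected set, and their medians beside those of all genes are no support.

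Cells were clustered per day in Python 3.11.15 with igraph 0.11.9 and leidenalg 0.10.2 (2000 variable genes, 30 principal components, 20 neighbours, resolution 1), giving 65 clusters and 16 subclusters of Epi-derived-like cells. A class needed at least 3 markers seen in at least 25% of cells, and 7 clusters stayed unnamed. No doublet caller was run. UMIs were summed per library and class with at least 5 cells and tested with edgeR 4.0.16 in R 4.3.3 (TMM, filterByExpr, quasi-likelihood test, 2-sided, Benjamini-Hochberg over all genes tested, called below 1%), with DESeq2 1.42.0 as an alternative. The genotype fits held all 11 libraries in 6 groups of genotype and day, and the lineage fits held wild-type libraries with the library as a block. The standard error (SE) is the size of the log2 difference divided by the square root of F. The scripts were tested on simulated data. Intervals are 95% exact binomial, a floor is 3 UMIs, and both cover counting error only. Thinned shares are the expected values for cells reduced to 5000 UMIs. Libraries of a group held different embryos and bore different batch numbers. The p-values of genotype and day fits thus measure the spread between libraries of pooled or single embryos, in which batch and depth also take part. Those of lineage fits, with the library as a block, measure the spread of the class difference between libraries. All 6 genes are named in every comparison, and the 3 most like genes of each are given. The genes and lists were chosen with earlier results of these data known, and the rules for naming clusters were settled after cluster profiles had been seen. No sequence is given.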

Additional observations from a re-analysis of the deposited data

Results flagged for a closer look

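FOXH1 lay on opposite sides between genotypes in different classes, in 2 libraries of each genotype, and these differences between classes were not tested. Every mutant library was higher in 1 of 5 genes with at least 10 UMIs in epiblast-like cells, beside 22.2% of all such genes. Every mutant library was lower in 1 of 3 in mesenchyme-like cells (beside 22.8%) and in 1 of 4 tested in amnion-like cells (beside 28.2%). Such shares over all genes do not set FOXH1 apart. The wild-type mean over the mutant mean at Day 14 was 2.25 in Epi-derived-like, 2.31 in mesoderm-like, 4.08 in amnion-like, 2.06 in endoderm-like and 4.04 in extraembryonic mesenchyme-like cells, but 0.692 in epiblast-like cells, where both mutant libraries were higher, as in 22.2% of genes with at least 10 UMIs. In endoderm-like cells the same ratio was 0.883 at Day 12, with both mutant libraries higher, as in 21.6% of genes with at least 10 UMIs, and 2.06 at Day 14, with both lower, as in 19.8% of tested genes.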

How the results depend on the processing

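Alternatives were uncorrected counts, DESeq2, other size factors, no filter on low counts, at least 20 cells per sum, other cluster resolutions, an adjusted p of 0.05, other thinning depths, a block, leaving out each library and, chosen after the data were seen, leaving out the Day 12 subcluster led by CGA. Of the fold changes under alternatives, 1332 kept their direction and side of the threshold, 42 changed sign, 23 passed it newly and 7 fell short of it. The cause was not tested. DESeq2 called 2 of the 6 genes, TBXT and FOXH1, at Day 14 over all cells, and the TBXT call is no support. With no filter on low counts, edgeR called 6 at Day 14 (5.82% of all genes), 3 at Day 12 (1.72%) and 3 at Day 10 (0.665%) in Epi-derived-like cells, 1 in the interaction (1.13%), 3 between Day 14 and Day 10 (3.77%), 2 in mesoderm-like (0.926%) and 2 in amnion-like cells (3.57%), and MIXL1 in endoderm-like against Epi-derived-like cells became -0.037 log2 (-0.022 at a lower resolution). At an adjusted p of 0.05 edgeR called 1, TBXT, in Day 14 Epi-derived-like cells, which is no support as both mutant libraries held 0 UMIs. With at least 20 cells per sum, Day 14 endoderm-like MIXL1 became -0.39 and GSC -0.18, and mesoderm-like EOMES 0.15, MIXL1 0.21 (0.017 at a higher resolution) and GSC 0.041. A lower resolution gave no mesoderm-like or amnion-like class at Day 12. The TBXT share difference was 1.94 percentage points after thinning to 5000 UMIs and 3.67 after thinning to 10000.

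Batch numbers did not pair the libraries (r of deviations -0.13 to 0.23). With the batch number as a replicate block, 0 of the 6 genes were called in every genotype and day comparison, and Day 12 Epi-derived-like GSC became -0.38. Without the library block, the lineage fits called 3 genes for endoderm-like and 6 each for trophoblast-like and extraembryonic mesenchyme-like cells. These counts include genes that passed the filter on low counts only through other classes, whose calls are no support.

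Leaving out 1 library gave 0 called genes in every genotype and day comparison and 3 to 4 in endoderm-like cells. Among the latter, calls of MESP1 and TBXT are no support. Log2 differences that changed sign ranged as follows, and those over 5 in size are fits against 0 or few UMIs, not sizes of change. At Day 12 over all cells, TBXT ran from -2.55 to 4.53, MIXL1 from -2.77 to 0.13, MESP1 from -2.51 to 0.96, GSC from -2.47 to 0.076 and FOXH1 from -1.34 to 0.47. At Day 12 in Epi-derived-like cells, TBXT ran from -1.60 to 5.22, EOMES from -2.68 to 9.19, MIXL1 from -3.11 to 1.64, MESP1 from -4.59 to 4.76, GSC from -1.37 to 0.69 and FOXH1 from -0.41 to 0.14. At Day 14 in Epi-derived-like cells, GSC ran from -2.82 to 3.27, and its thinned share difference from -0.601 to 6.07 points. In the interaction, MIXL1 ran from -4.46 to 1.04 and GSC from -2.96 to 3.17. Between Day 14 and Day 10, TBXT ran from -0.049 to 1.85, EOMES from -0.26 to 0.97, MIXL1 from -0.46 to 2.23, MESP1 from -0.67 to 2.11 and GSC from -1.33 to 4.73. At Day 14 in endoderm-like cells, EOMES ran from -1.23 to 0.15, MIXL1 from -0.40 to 1.02 and GSC from -0.43 to 0.97. In mesoderm-like cells, EOMES ran from -10.42 to 0.15, MIXL1 from -6.61 to 0.32 and GSC from -9.70 to 8.18. In amnion-like cells MESP1 ran from -3.98 to 5.52, and in endoderm-like against Epi-derived-like cells MIXL1 ran from -0.63 to 0.79. With 2 libraries a group, 9 mutant mesoderm-like cells in a Day 14 library and 282 TBXT UMIs in all, small differences could not be detected.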

Other observations

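Among the cells of clusters that could not be named, those of wild-type Day 14 replicate 1 had the highest levels of MESP1 and MIXL1. They held 228 MESP1 UMIs, 2.53% of that gene's UMIs in the library, at 139 CPM of MESP1, 95.2 CPM of MIXL1, 104 CPM of FOXH1, 13.4 CPM of GSC and 3.05 CPM of TBXT. In the other libraries with such cells MESP1 did not exceed 1.95 CPM and MIXL1 did not exceed 5.68 CPM.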
